A study of Mus musculus with 12 samples.

Results

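The 10 genes described here mark T cells, natural killer (NK) cells and innate lymphoid cells: Cd3e, Cd3g, Cd4, Cd8a, Nkg7, Gzma, Il7r, Gata3, Ncr1 and Klrb1c. They were taken by symbol from a table of 47747 gene symbols, and all 10 were found in it. The libraries were made from total RNA of the meninges, the layers that wrap the brain, taken from 12 C57bl/6 mice. Of these, 6 had received dextran sulfate sodium (DSS), which damages the lining of the colon and brings on colitis, at 2% in the drinking water for 5 days before a return to normal water, and 6 were controls. The mice were culled after 6 days, with no statement of the day from which this was counted, and neither age nor sex is given. The comparison asks what DSS colitis does to gene expression in the meninges.

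T cells recognise peptides through a receptor that signals through the CD3 chains, and the coreceptors CD4 and CD8 divide them into helper and cytotoxic lineages. NK cells and cytotoxic T cells kill by releasing granules, while innate lymphoid cells lack antigen receptors and depend on interleukin 7 and on lineage factors such as GATA3. In the meninges, lymphocytes of these kinds sit mainly in the dura and around its venous sinuses. Bulk RNA holds all cells of the tissue together, so fewer cells of a type and less RNA per cell cannot be told apart. Some of the 10 genes are also used outside lymphocytes: Gata3 in other tissues, Cd4 and Cd8a in some dendritic cells, and Il7r in precursors of B cells.

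Each mouse gave 1 library, with 9312788 to 41869997 counts. Levels are given in CPM, the field's usual scaling of counts to library size, after TMM, a method that balances libraries on the genes they share. Control replicate 2 stood apart, with 59.8% of its counts in 18S ribosomal RNA features against 0.0430% to 9.23% in the others. Control replicates 2 and 3 and DSS replicate 2 had the smallest scaled library sizes (11127367 to 13621818). The sample source label names colon, while titles and extraction protocol name meninges. The fibroblast genes Col1a1 (4164 to 9121 CPM) and Dcn (604 to 951 CPM) and the macrophage receptor gene Mrc1 (152 to 271 CPM) were present in every library. Of the intestinal genes, Epcam lay between 0.160 and 2.03 CPM and Cdx2 had no count in any library.

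None of the 10 genes passed the test for a difference between DSS and control meninges. Each passed the filter on low counts, and edgeR (quasi-likelihood test, Benjamini-Hochberg adjustment over 18593 tested genes) called 0 of them at an adjusted p under 0.05, where 4.94% of all tested genes were called (3.68% higher and 1.26% lower in DSS mice). At an unadjusted p under 0.05, 1 of the 10 was past the threshold (Cd4), against 19.0% of all tested genes. DESeq2 and limma-voom each called 1 of the 10, again Cd4, as did edgeR at an adjusted p under 0.1, which 8.83% of all tested genes met. The fitted log2 fold change was above 0 for 6 of the 10 and below 0 for 4, with a median of 0.16, against a median of -0.022 and 45.3% above 0 over all tested genes. In each of the 10 the values of the groups overlapped, while 3.05% of all tested genes had groups that did not overlap. Total counts of single genes were small, from 2 to 75 per library for every gene except Cd4 and Il7r, and this limits what can be detected.

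**Figure D1:**
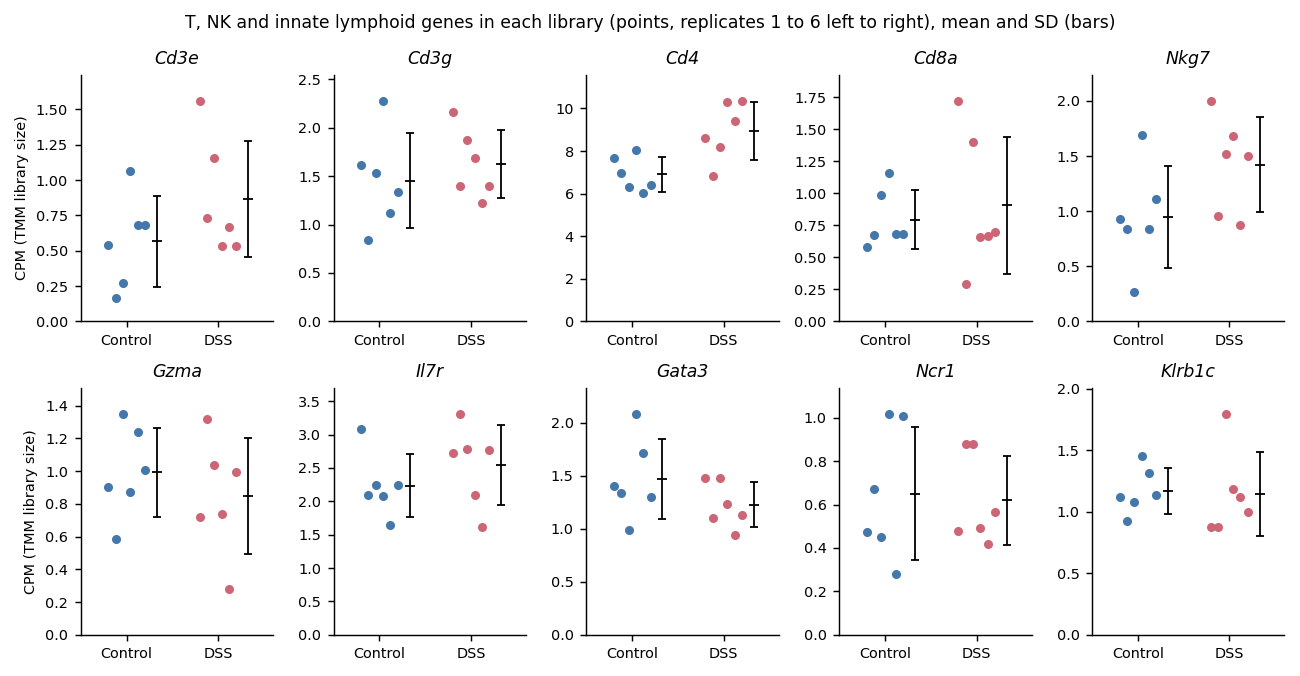
Level of each gene in each library (vertical axis, CPM; points are mice, replicates 1 to 6 from left to right; bars, mean and SD, n = 6 per group). The groups overlap in all 10 panels, and Cd4 is the gene with most DSS mice (5 of 6) above the highest control.

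Cd3e encodes the epsilon chain of CD3, which is part of every T cell receptor complex. It lies on chromosome 9 (GRCm38, 44998740 to 45009627, minus strand). In controls it ranged from 0.168 CPM through a median of 0.609 to 1.06 CPM, and in DSS mice from 0.532 through 0.700 to 1.56 CPM. DSS replicates 1 and 3 were the only DSS mice above the highest control, and Control replicates 2 and 3 the lowest of all. These lowest values rest on 2 and 3 counts, with 95% Poisson intervals of 0.242 to 7.22 and 0.619 to 8.77 counts, which cover counting error only. The log2 fold change of Cd3e was 0.53 ± 0.38 (SE; 95% interval -0.29 to 1.35; edgeR adjusted p = 0.510), so that a fall to 0.819-fold and a rise to 2.55-fold both lie in the interval.

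Cd3g encodes the gamma chain of CD3 and lies 18309 bases from Cd3e with Cd3d between them, at 44969572 to 44980431 on the minus strand of chromosome 9. It was measured with more counts (10 to 75 per library). Controls ranged from 0.839 through 1.43 to 2.27 CPM and DSS mice from 1.23 through 1.54 to 2.16 CPM. Every DSS mouse lay inside the range of the controls. The log2 fold change of Cd3g was 0.15 ± 0.23 (SE; 95% interval -0.35 to 0.65; edgeR adjusted p = 0.806). Cd3g took 77.3% ± 8.37 of the length-scaled counts of both CD3 genes in controls (SD, n = 6) and 71.1% ± 6.09 in DSS mice (SD, n = 6). The difference of means, -6.16 percentage points, did not pass the test (exact two-sided permutation test, p = 0.173, adjusted over the 2 shares tested p = 0.346).

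Cd4, the coreceptor gene of helper T cells (chromosome 6, 124864692 to 124888221, minus strand), had the highest counts of the 10 genes, with 70 to 356 per library. Controls ranged from 6.04 through 6.68 to 8.03 CPM, and DSS mice from 6.83 through 9.01 to 10.3 CPM. All DSS mice except replicate 2 exceeded the highest control. The Cd4 log2 fold change was 0.38 ± 0.12 (SE; 95% interval 0.12 to 0.63), a fold of 1.30, and the adjusted p of edgeR's test was 0.0844. The call differed between tools: the adjusted p was 0.0319 by DESeq2's Wald test, which also used its own scaling and filtering, and 0.0414 by limma-voom with sample quality weights. By edgeR it was 0.0227 without DSS replicate 2 and lay between 0.0731 and 0.193 without any other single mouse. Genes of border-associated macrophages did not pass edgeR's test in the same mice (0 of 8, with 2 at an unadjusted p under 0.05). DESeq2 and limma-voom each called 1 of them, and edgeR called 3 without DSS replicate 2 and 1 without Control replicate 6. The summed level of these genes was 618 to 726 CPM in controls and 556 to 1086 CPM in DSS mice. Neither the part of macrophages in the Cd4 values nor that of plasmacytoid dendritic cells, whose genes are given below, was tested.

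Cd8a, the coreceptor gene of cytotoxic T cells (chromosome 6, 71373427 to 71379173, plus strand), ranged in controls from 0.582 through 0.681 to 1.16 CPM. In DSS mice it ranged from 0.294 through 0.682 to 1.72 CPM. The medians were nearly equal, and both extremes of the DSS group lay outside the range of the controls: replicates 1 and 3 above it and replicate 2, with 4 counts, below. Its log2 fold change was 0.24 ± 0.36 (SE; 95% interval -0.53 to 1.00; edgeR adjusted p = 0.798), and -0.044 without DSS replicate 1. Cd8a made up 11.3% ± 2.63 of the length-scaled counts of Cd4 and Cd8a in controls (SD, n = 6) and 9.91% ± 5.64 in DSS mice (SD, n = 6). That difference of means, -1.38 percentage points, did not pass the test (exact two-sided permutation test, p = 0.591, adjusted over the 2 shares p = 0.591). The test compares means and not the spread of the shares. DSS replicates 1 and 3 had shares of 18.2% and 15.9%, above all controls, and DSS replicates 2, 4, 5 and 6 had shares of 4.55% to 7.26%, below all controls.

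The genes of cytotoxic granules went in opposite directions, and neither passed the test. Nkg7 encodes a membrane protein of cytotoxic granules (chromosome 7, 43437073 to 43438249, plus strand). It ranged from 0.270 through 0.883 to 1.69 CPM in controls and from 0.875 through 1.51 to 2.00 CPM in DSS mice. Its log2 fold change was 0.55 ± 0.31 (SE; 95% interval -0.12 to 1.23; edgeR adjusted p = 0.373), the highest of the 10, and 1 DSS mouse lay above the highest control. Gzma encodes granzyme A, a serine protease of those granules (chromosome 13, 113093825 to 113100981, minus strand). It ranged from 0.587 through 0.957 to 1.35 CPM in controls and from 0.280 through 0.869 to 1.32 CPM in DSS mice, with the lowest value, from 8 counts, in DSS replicate 5. Its log2 fold change was -0.25 ± 0.31 (SE; 95% interval -0.92 to 0.41; edgeR adjusted p = 0.741).

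The NK receptor genes had the smallest differences. Ncr1 encodes NKp46, an activating receptor of NK cells and of some innate lymphoid cells (chromosome 7, 4337724 to 4345164, plus strand). It ranged from 0.280 through 0.573 to 1.02 CPM in controls and from 0.420 through 0.529 to 0.881 CPM in DSS mice, all of them inside the range of the controls. Its log2 fold change was -0.10 ± 0.34 (SE; 95% interval -0.83 to 0.62; edgeR adjusted p = 0.922). Klrb1c encodes NK1.1, the lectin-like receptor that identifies NK cells in C57BL/6 mice (chromosome 6, 128778485 to 128789215, minus strand). It ranged from 0.922 through 1.13 to 1.45 CPM in controls and from 0.880 through 1.06 to 1.79 CPM in DSS mice. The log2 fold change was -0.037 ± 0.21 (SE; 95% interval -0.49 to 0.42; edgeR adjusted p = 0.958). The sign of Ncr1 turned without Control replicate 4 or 6 and that of Klrb1c without Control replicate 4 or DSS replicate 1, 2 or 6, with values of at most 0.10. Klrb1c shares 413 exon bases with an annotated gene on the same strand and has near copies in the same cluster, so its counts are uncertain where reads were shared.

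Il7r and Gata3 belong to innate lymphoid cells as well as to T cells. Il7r encodes the interleukin 7 receptor alpha chain, on which survival of naive and memory T cells depends (chromosome 15, 9505788 to 9530176, minus strand). It ranged from 1.64 through 2.17 to 3.08 CPM in controls and from 1.61 through 2.74 to 3.30 CPM in DSS mice. Its log2 fold change was 0.17 ± 0.20 (SE; 95% interval -0.25 to 0.60; edgeR adjusted p = 0.715). Gata3 encodes the transcription factor of type 2 helper and innate lymphoid cells (chromosome 2, 9857078 to 9890034, minus strand). It ranged from 0.989 through 1.37 to 2.08 CPM in controls and from 0.945 through 1.18 to 1.48 CPM in DSS mice, and its log2 fold change of -0.27 ± 0.20 was the lowest of the 10 (SE; 95% interval -0.71 to 0.16; edgeR adjusted p = 0.525). Exons of Gata3 and of Cd3e share 232 and 135 bases with other annotated genes, which lie on both strands, and the strand setting of the counting is not given in the sources used here.

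**Figure D2:**
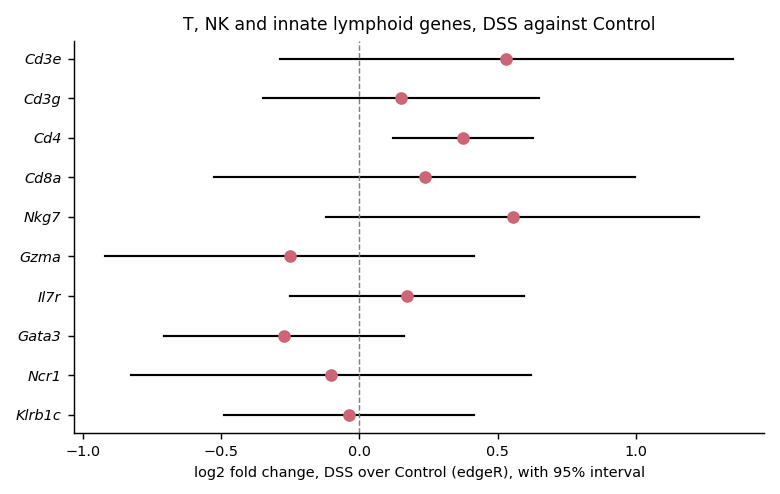
Log2 fold change of each gene, DSS over Control, from edgeR (horizontal axis; points), with 95% intervals (lines). The interval of Cd4, from 0.12 to 0.63, lies above 0 before adjustment, and the other 9 intervals include 0.

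Levels between genes were compared as CPM per kilobase of annotated exon, since longer transcripts give more reads. Over the 12 libraries Cd4 was highest (1.97 ± 0.374 CPM per kilobase, SD), followed by Nkg7 (1.29 ± 0.539) and Gzma (0.916 ± 0.310). Il7r (0.512 ± 0.116), Cd3g (0.470 ± 0.128), Ncr1 (0.412 ± 0.162), Klrb1c (0.391 ± 0.0889) and Gata3 (0.339 ± 0.0804) came next. The ranges of these 5 genes over the libraries overlapped, and differences between them within the same libraries were not tested. Cd8a (0.234 ± 0.109) and Cd3e (0.175 ± 0.0943) were the lowest. The Cd4 level was thus above that of either CD3 gene, as no library's Cd4 value fell to the highest value of Cd3g (range 0.256 to 0.696) or Cd3e (range 0.0411 to 0.382). The exon length is a union over annotated transcripts, so an isoform that dominates would shift a gene's place.

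**Figure D3:**
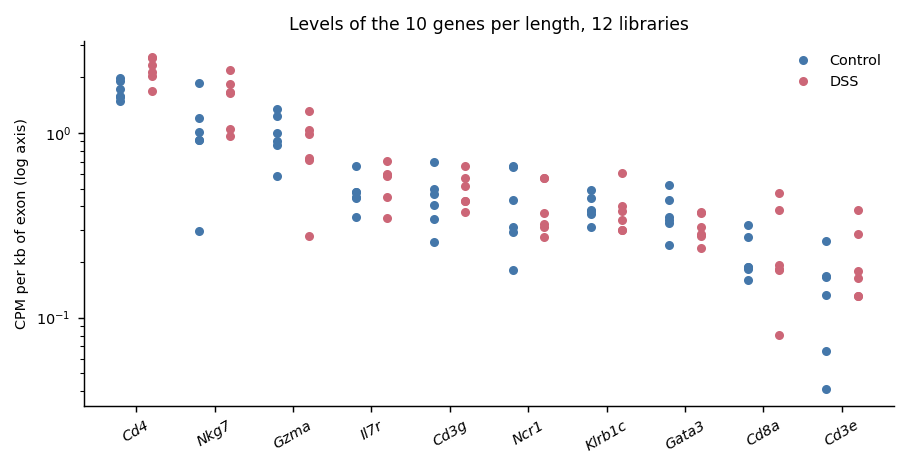
Level per kilobase of exon (vertical axis, CPM per kb, log scale) of the 10 genes in order of their mean over 12 libraries; points are mice, coloured by group. Cd4 lies above Cd3g, Cd8a and Cd3e in every library, and the genes from Il7r to Gata3 overlap.

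Within each group some of the 10 genes rose and fell together from mouse to mouse. Pearson's r of log2 CPM, centred within groups, was over 0.5 in 7 of 45 pairs and under -0.5 in 0 (12 libraries; median 0.24, range -0.48 to 0.84). These values are descriptions. Both genes of a pair come from the same libraries, whose depth was unequal and whose dissection may have differed. The part of either in r was not tested. Nkg7 and Gata3 had the highest r (0.84), then Cd3e and Gata3 (0.73) and Cd3e and Cd3g (0.71). The r of Cd4 with Cd3g was 0.24 (controls alone 0.57, DSS alone -0.094), and that with Cd3e was -0.080 (controls alone 0.29, DSS alone -0.46). Its lowest r was that with Gzma (-0.48). Gzma and Il7r had an r of 0.58, made up of -0.20 in controls and 0.94 in DSS mice.

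The highest and lowest values were not spread evenly over the mice. Control replicate 4 was the highest control for 8 of the 10 genes, all except Gzma and Il7r, and DSS replicate 1 the highest DSS mouse for 5. DSS replicate 5 was the lowest DSS mouse for 6 and Control replicate 2 the lowest control for 4. The summed level of the 9 T cell receptor and CD3 genes outside the 10 was likewise highest among controls in Control replicate 4 (18.6 CPM, others 10.2 to 14.7), and among DSS mice it was highest in replicate 3 (26.0 CPM) and replicate 1 (19.0 CPM, others 11.0 to 14.0). DSS replicate 3 had the lowest summed level of 10 neutrophil genes among DSS mice (254 CPM, others 1049 to 1377).

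**Figure D4:**
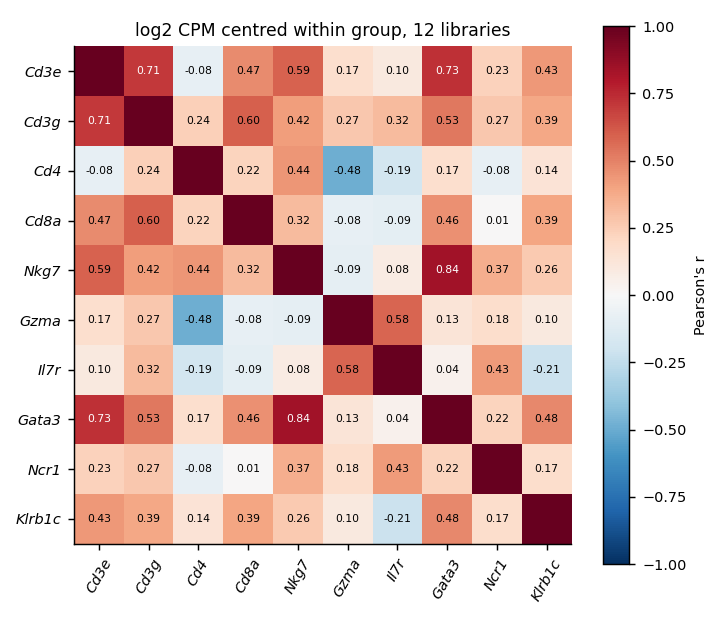
Pearson's r between pairs of the 10 genes (both axes), from log2 CPM centred within each group over 12 libraries; red is positive and blue negative. Of the pairs among Nkg7, Gata3, Cd3e and Cd3g, all except Nkg7 with Cd3g (0.42) have an r over 0.5. So do Cd3g with Cd8a (0.60) and Gzma with Il7r (0.58). Cd4 and Gzma have the lowest (-0.48).

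Among 13937 to 13938 other genes, those most like Gata3 across the 12 libraries were Cd2, a T and NK cell adhesion gene (r = 0.92), Irf8 (0.90), Mark2 (0.90) and Ltb, the lymphotoxin beta gene of lymphocytes (0.89). Those most like Nkg7 were Zbp1 (0.94), Abcg1 (0.90), Hspb1 (0.89) and Ccr7, a homing receptor gene of T and dendritic cells (0.88). Those most like Cd3e were Dhx38 (0.91), Usp19 (0.90), Fam129b (0.89) and Ppp1r16a (0.88), and those most like Il7r were Lrch3 (0.94), Rapgef6 (0.93), Hecw2 (0.90) and Pitpnc1 (0.90). These are the highest of many correlations over few libraries and carry no test. With the 8 tested receptor and CD3 genes outside the 10 (Cd3d and Trac among them), the median r was 0.61 for Gata3, 0.54 for Cd3g, 0.53 for Cd3e, 0.52 for Klrb1c and 0.50 for Nkg7, and 0.13 for Cd4.

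To show the sequence upstream of genes of both kinds, 250 bases before the RefSeq start (GRCm38.p6) were searched on both strands for letters that RUNX, ETS and GATA factors, which act in lymphocyte development, are known to bind. Windows were at hand for 9 of the 10 genes (not for Cd4). The RUNX letters TGTGGT occurred before Nkg7, Gzma, Ncr1 and Klrb1c, and not before the other 5, Cd8a among them, while 14.0% of 32851 promoter windows hold them. The ETS letters ACAGGAA or ACCGGAA occurred before Cd3e, Il7r and Gata3 (9.8% of windows), and the GATA letters AGATAA or TGATAA before Cd3g (16.6% of windows). A match is a description of letters and not a binding site. The last 120 bases before the start are printed for 3 genes that hold a match there and whose RefSeq and GENCODE starts coincide, with matches in capitals; in both Gzma and Ncr1 the RUNX letters, on the opposite strand, began 50 bases before the start. The windows are chr9:44980432-44980551 (minus strand) for Cd3g, chr13:113100982-113101101 (minus strand) for Gzma and chr7:4337604-4337723 (plus strand) for Ncr1.
Cd3g: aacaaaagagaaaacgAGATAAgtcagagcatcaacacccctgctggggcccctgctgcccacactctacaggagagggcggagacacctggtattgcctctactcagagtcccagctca
Gzma: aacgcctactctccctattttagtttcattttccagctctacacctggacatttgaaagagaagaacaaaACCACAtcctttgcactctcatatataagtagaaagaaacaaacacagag
Ncr1: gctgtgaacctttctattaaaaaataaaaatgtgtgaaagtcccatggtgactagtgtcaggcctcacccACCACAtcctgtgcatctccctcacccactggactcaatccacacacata

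Around the 10 genes, other genes of the same cells were read from lists. Of 8 tested T cell receptor and CD3 genes 0 passed edgeR's test, with 1 at an unadjusted p under 0.05 and a median log2 fold change of 0.28. Trbc2, a constant region gene of the receptor beta chain, lay at 4.11 ± 0.915 CPM (controls) and 5.26 ± 2.69 CPM (DSS; SD, n = 6 a group; edgeR adjusted p = 0.559), and Trbc1 at 2.64 ± 0.603 and 3.19 ± 1.05 CPM (adjusted p = 0.585). Of 7 tested coreceptor, helper and regulatory T cell genes 0 passed (1 at an unadjusted p under 0.05; median log2 fold change 0.11, 4 of 7 above 0), the highest in level being Ikzf2 (11.3 ± 1.99 and 10.8 ± 1.51 CPM) and Il2ra (1.53 ± 0.425 and 1.72 ± 0.298 CPM). Of 6 tested cytotoxic effector genes 0 passed (0 at an unadjusted p under 0.05), with 4 of the 6 log2 fold changes above 0 and a median of 0.13. The highest in level were Serpinb9, a granzyme inhibitor gene (63.1 ± 5.74 and 62.2 ± 7.46 CPM), and the granzyme gene Gzmm (9.97 ± 2.63 and 7.81 ± 1.76 CPM); 1 was called without Control replicate 4. For these 3 lists DESeq2 and limma-voom called 0 genes as well.

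Other lymphoid lists held genes that rose, where 3.68% of all tested genes were called higher in DSS mice. Of 17 tested T cell receptor signalling genes 3 rose (median log2 fold change 0.27): Ptprc, the CD45 gene of all leukocytes, from 44.7 ± 7.46 to 80.1 ± 13.1 CPM (edgeR adjusted p = 0.00154; log2 fold change 0.84 ± 0.12 SE), and the adaptor genes Lcp2 (0.52 ± 0.11 SE) and Fyb (0.37 ± 0.076 SE). Of 11 lineage transcription factor genes 2 rose: Ikzf1, which encodes Ikaros, from 12.4 ± 1.26 to 20.9 ± 2.18 CPM (edgeR adjusted p = 0.000382), and Zbtb7b by 0.28 ± 0.076 SE (adjusted p = 0.0491), a call kept only without Control replicate 2, 3 or 6 or DSS replicate 2 among single mice left out. A mixed list held common gamma chain cytokine, receptor and signalling genes, with Il33 and genes of interleukin 18, TSLP and their receptors. Of its 17 tested genes 3 rose (6 without DSS replicate 2). They were Il18rap, an interleukin 18 receptor subunit gene, from 1.83 ± 0.533 to 4.88 ± 1.23 CPM (edgeR adjusted p = 0.00247), Jak3 from 19.0 ± 1.82 to 26.7 ± 3.47 CPM (adjusted p = 0.00930; 0.0502 without the 3 shallowest libraries), and Crlf2, the receptor gene for TSLP, by 0.24 ± 0.064 SE (adjusted p = 0.0483), kept only without DSS replicate 2 among single mice left out. Il2rg, which encodes the partner chain of the interleukin 7 receptor, lay at 6.02 ± 1.42 and 8.74 ± 1.56 CPM (adjusted p = 0.0645), and its ligand gene Il7 had a log2 fold change of -0.48 ± 0.23 SE; both were chosen for naming after their values were seen. In the same mice 10 of 10 neutrophil genes rose (median log2 fold change 3.31; summed level 66.5 to 194 CPM in controls and 254 to 1377 CPM in DSS mice), and their part in these rises was not tested.

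The counts of called genes in the next lists were 1 each, to be read beside the same 3.68% of all tested genes called higher and 1.26% called lower. Of 12 tested trafficking genes 1 rose, Itga4, the alpha 4 integrin gene of lymphocytes and myeloid cells, from 14.6 ± 2.65 to 24.9 ± 3.35 CPM (SD, n = 6; edgeR adjusted p = 0.00260); leaving out DSS replicate 2 gave 3 risen genes, and leaving out Control replicate 4, Control replicate 6 or DSS replicate 5 gave 2. Of 9 tested innate lymphoid genes 1 was called lower and none higher. It was Id2, a regulator of innate lymphoid development that fibroblasts and many other cells also express, from 121 ± 5.80 to 86.0 ± 6.97 CPM (edgeR adjusted p = 0.000643). In this list 2 genes were called without DSS replicate 5. At an unadjusted p under 0.05 in edgeR, 3 of its genes were higher in DSS mice (Il1rl1, Il17rb and Ahr) and 1 lower (Id2). Over all tested genes 9.77% were higher at that threshold. The median log2 fold change of the list was 0.048, with 5 of 9 above 0. The cytokine genes of type 2 innate lymphoid cells were near 0, with 0 to 4 counts for Il5 and 0 to 2 for Il13. Of 11 tested NK genes 1 rose, Klrb1f, a gene of the cluster that holds Klrb1c, from 0.181 ± 0.0902 to 0.560 ± 0.103 CPM (log2 fold change 1.47 ± 0.30 SE, edgeR adjusted p = 0.0121). It rests on 1 to 18 counts per library. Its edgeR adjusted p was 0.0577 with a term for replicate number, and 0.0528 with the 3 shallowest libraries left out together. The latter setting was added once the values were known. Without Control replicate 2 or 4 or DSS replicate 2 or 3, 2 NK genes were called. The median log2 fold change of the NK list was 0.43, with 9 of 11 above 0. At an unadjusted p under 0.05 in edgeR, 4 of the 11 were higher (Klrb1f, Klrb1b, Il2rb and Klrk1) and 0 lower, against the same 9.77%. Of 4 tested T cell precursor genes 1 rose, Notch1, by 0.35 ± 0.092 SE (edgeR adjusted p = 0.0433), a call kept only without Control replicate 1 or DSS replicate 5.

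**Figure D5:**
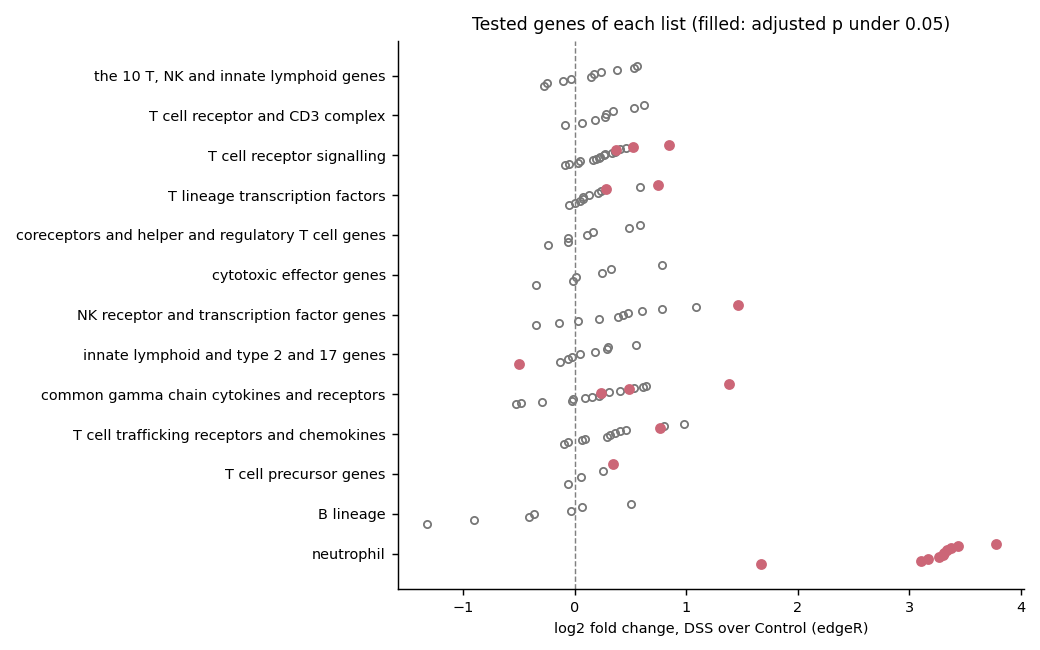
Log2 fold change, DSS over Control (horizontal axis), of each tested gene of the 10 described here, of 10 related lymphoid lists and of the B lineage and neutrophil lists (vertical axis); filled points have an adjusted p under 0.05. All 10 neutrophil genes are filled, from 1.67 to 3.78, and none of the 10 T, NK and innate lymphoid genes is.

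Lists of other cells were measured too, and some of these cells can carry some of the 10 genes. Of 7 tested B lineage genes 0 passed edgeR's test (2 at an unadjusted p under 0.05; DESeq2 called 1 and limma-voom 3; edgeR called 1 when Control replicate 2 was left out, and 1 each without the second or the third DSS mouse), with Ebf1 at 51.5 ± 6.19 and 50.3 ± 6.06 CPM and Blnk at 5.12 ± 0.933 and 7.29 ± 1.04 CPM. Of 6 plasmacytoid dendritic cell genes 0 passed edgeR's test (3 at an unadjusted p under 0.05; 1 by either other tool, and 1 without Control replicate 6 or DSS replicate 2), with Tcf4 at 118 ± 14.6 and 112 ± 14.5 CPM and Runx2 at 66.8 ± 8.96 and 56.4 ± 4.44 CPM. Of those 3, Siglech and Runx2 were lower in DSS mice and Bst2 was higher. Siglech lay at 7.71 ± 1.01 and 5.92 ± 1.16 CPM, with 5 of 6 DSS mice below the lowest control. Bst2 lay at 24.9 ± 4.20 and 31.8 ± 4.52 CPM. The 1 risen gene of 6 classical type 1 dendritic cell genes was Batf3, from 0.985 ± 0.318 to 1.77 ± 0.391 CPM (adjusted p = 0.0499), and that call was kept only without Control replicate 2 or DSS replicate 2 (2 genes of the list were called without the latter). Of 8 mast cell genes 1 rose, Fcer1a, from 1.99 ± 0.315 to 4.14 ± 1.70 CPM (adjusted p = 0.0202), not called without Control replicate 5, while 5 of the 8 were called without DSS replicate 2. Of 6 lymphatic endothelial genes 1 fell, Pdpn, from 52.1 ± 3.86 to 42.9 ± 4.47 CPM (adjusted p = 0.0487; kept only without Control replicate 4 or DSS replicate 4), and of 10 meningeal fibroblast genes 1 fell, Aldh1a2, from 58.1 ± 11.5 to 37.7 ± 4.16 CPM (adjusted p = 0.00874; 0.0542 without the 3 shallowest libraries). In the border-associated macrophage list Csf1r lay at 224 ± 16.9 and 256 ± 38.6 CPM. Of 2 tested genes of sympathetic neurons, which use Gata3, and of 5 tested colon epithelium genes 0 passed edgeR's test (1 of each at an unadjusted p under 0.05; DESeq2 called 0 and 1, limma-voom 0 of either), with Ddc at 89.1 ± 22.7 and 61.3 ± 16.5 CPM, Th at 1.72 ± 0.957 and 1.66 ± 0.938 CPM, Krt8 at 10.9 ± 4.27 and 9.43 ± 2.67 CPM and Lgals4 at 3.36 ± 0.553 and 4.65 ± 0.840 CPM.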

How the data were processed

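Total RNA of the meninges of 12 mice (6 DSS, 6 Control) was sequenced after TruSeq stranded library preparation (per the labels' protocols). The authors deposited raw counts, whole numbers for each gene symbol; the submitters' processing notes name CASAVA, FastQC, Trim Galore, HISAT2, featureCounts and mm10, without roles. Their versions, the annotation, the strand setting and the handling of multi-mapped reads are not stated there. Columns were matched to mice by the description label, and 0 columns belonged to no sample. A second deposited table of normalized values was not used.

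Genes were tested with edgeR 4.0.16 in R 4.3.3 (filterByExpr, minimum count 10 and minimum total 15; TMM; glmQLFit and glmQLFTest, treatment as the only term; two-sided; Benjamini-Hochberg adjusted p under 0.05), and standard errors were derived by dividing each log2 fold change by the root of its F. The steps were tested on simulated data. The log2 CPM used a prior count of 2. Lengths and coordinates are from GENCODE M21 (GRCm38). Shares were compared by exact permutation, whose smallest p is 0.00216 here. Alternatives were DESeq2 1.42.0, limma-voom with sample quality weights (limma 3.58.1), other scalings and filters, a replicate block and each mouse left out in turn. Named genes were all 10 members of the set, from each list up to 4 called genes (otherwise the 2 highest), and the 4 genes most correlated with Cd3e, Nkg7, Il7r and Gata3. Genes past an unadjusted p under 0.05 were also named for the innate lymphoid, NK and plasmacytoid dendritic cell lists, after their values were seen. For the neutrophil list only counts and sums are given. The genes and lists were chosen with earlier results of these data known. Counts of 2 to 356 per gene and library set the counting error.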

Additional observations from a re-analysis of the deposited data

Results flagged for a closer look

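Of 24 sets of 6 values tested for a single value far from the rest (the 10 genes and the 2 shares in each group), 1 stood out, and chance gives about 1 in 20. Klrb1c lay at 1.79 CPM in DSS replicate 3, against 0.880 to 1.19 CPM in the other DSS mice, a gap of 0.660 of the range. Without that mouse the log2 fold change of Klrb1c was -0.21, and it was not called.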

How the results depend on the processing

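Of the 207 fitted values of the 10 genes under alternatives, 7 changed sign, all with 1 mouse left out, and 3 crossed the threshold, all for Cd4. With single mice left out the log2 fold changes ranged from -0.044 to 0.40 for Cd8a, from -0.27 to 0.10 for Ncr1 and from -0.21 to 0.040 for Klrb1c, and the number of the 10 called from 0 to 1; it was 1 by DESeq2, by limma-voom and at an adjusted p under 0.1. Scaling by DESeq2 size factors and leaving out ribosomal RNA features changed no sign among the 10. A CPM of at least 1 in 6 libraries left 7 of the 10 testable, without Cd3e, Cd8a and Ncr1. For genes called, DSS against Control, the number was 919, 1564 by DESeq2, 1641 at an adjusted p under 0.1, and 538 to 1379 with single mice left out.

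The sample labels state no pairing of mice with equal replicate numbers. Same-number correlations of deviations from the group means were -0.19 to 0.15, and 0 of 6 numbers correlated best with itself. Such correlations cannot show whether mice were paired. For genes called, DSS against Control, the replicate block gave 708, 0 of the 10, 1 lineage factor, 0 NK and 0 precursor genes. DESeq2 called 3 NK genes, 6 of the mixed gamma chain list and 4 trafficking genes. In that order limma-voom called 2, 5 and 4, and the 0.1 threshold 2, 5 and 3. Robust dispersion called 2 NK genes. Without a filter 1 lineage factor and 0 precursor genes were called, and without the 3 shallowest libraries 2 trafficking and 0 precursor genes. With single mice left out the counts were 1 to 2 lineage factors, 0 to 1 cytotoxic, 1 to 2 NK and 1 to 2 innate lymphoid genes. They were 2 to 6 for the mixed gamma chain list, 1 to 3 for trafficking and 0 to 1 for precursor genes. Low counts limit Cd3e, Cd8a and Ncr1 most.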

Other observations

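Genes beside Klrb1c in the NK receptor cluster had other values than Klrb1c itself. The pairs were chosen after their values were seen, so these are descriptions with no test. The log2 ratio of Klrb1f to Klrb1c (counts plus 1) was -2.43 ± 0.318 in controls (SD, n = 6) and -0.95 ± 0.476 in DSS mice (SD, n = 6), a difference of 1.47 that lay between 1.36 and 1.57 with any single mouse left out. The Klrb1b to Klrb1c log2 ratio was -0.00016 ± 0.479 in controls and 1.00 ± 0.869 in DSS mice, above all controls in 4 of 6, and its difference lay between 0.77 and 1.28 with any single mouse left out. Klrb1b encodes an inhibitory NK receptor. Klrb1f rests on 1 to 18 counts per library, and reads shared between near copies could be split by the counting.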
